A study of Oryza sativa Japonica Group with 3 samples.

Results

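In dry seeds of the japonica rice landrace Jiucaiqing, 223 loci combined a high transcript level with a steep fall at each of 2 successive steps of imbibition. A locus belonged to this set if its FPKM (fragments counted, divided by transcript length and by library size) was 100 or more in the dry seed, and if FPKM + 1 was at least 3-fold lower at 24 h than at 0 h and at least 3-fold lower again at 48 h than at 24 h. Isoforms were summed per locus, and the set was drawn from 55986 loci, of which 1001 were at 100 FPKM or more in the dry seed. The 3 samples were the dry seed (0 h), the imbibed seed (24 h) and the germinated seed (48 h), all of 1 genotype, and the later 2 were imbibed in distilled water at 30 °C. RNA came from whole seeds, was enriched for poly(A), and was sequenced as 1 library per time, with 3 biological replicates combined before sequencing. With 1 library per time there is no spread between replicates, so no p-value is given and each difference is one between single libraries. The total read number of each library is unknown. The levels at all 3 times chose the members, so their falls are a description of the set and not a finding about it. The files do not pair locus IDs with gene names. A reference table of 39387 genes matched 1 locus ID and 0 of the 223 members, so loci are given by ID, no function is assigned to any of them, and the seed's identity was not checked against marker genes.

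A seed that matures and dries keeps a store of mRNA made on the mother plant. In cereals such stored mRNA is known to be rich in messages for proteins of late maturation, among them storage proteins, late embryogenesis abundant proteins and small heat shock proteins, which protect or provision the dry embryo. After water uptake, stored messages are broken down while transcription resumes, and the seed passes from the maturation programme to that of germination. A whole-seed library mixes embryo, endosperm and outer layers, and in it fewer cells of a type and less RNA per cell cannot be told apart.

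The 223 loci made up a large part of the dry seed's signal and little of the germinated seed's. Their FPKM summed to 301881 at 0 h, 27076 at 24 h and 3879 at 48 h. As a share of the summed FPKM of each library they held 34.3% at 0 h, 4.66% at 24 h and 0.725% at 48 h. The share thus shrank at both steps, and by more percentage points in the first. As a ratio the steps were close in size, and their order depended on the setting. With median-of-ratios scaling, where the shares were 31.8%, 3.87% and 0.449%, the second ratio was slightly the larger. The share at 48 h rests on which loci pass the rule: it was 0.449% with median-of-ratios scaling, under which LOC_Os01g05650, the highest member at 48 h, is outside the set. One locus outside the set, LOC_Os09g00999, took a growing part of the later libraries. What it encodes, and whether it is an mRNA, cannot be read from the values, and it enters every share. Without it in the sums the shares of the 223 loci were 36.3%, 5.22% and 0.910% at 0, 24 and 48 h.

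The summed FPKM of the whole libraries was 881252 at 0 h, 580571 at 24 h and 535327 at 48 h. Since FPKM is divided by library size, this sum does not measure the amount of RNA in a seed. The net difference between 24 h and 0 h was -300681 FPKM, of which the 223 loci gave -274805; rises that sum to 167103 FPKM and falls that sum to -467784 FPKM cancel in part in that net value, and the 223 loci made up 58.7% of the falls. Between 48 h and 24 h the net difference was -45243 FPKM, and the 223 loci, with -23197 FPKM, made up 12.2% of the falls. In that step the 102 loci at 100 FPKM or more at 0 h that were 3-fold lower at the second step alone gave more, -54339 FPKM or 28.5% of the falls. Much of this came from LOC_Os01g15270, which went from 23480 to 4875 FPKM, and LOC_Os07g34589, which went from 8121 to 1185 FPKM. The largest part of the falls in that step, 36.1%, came from loci under 100 FPKM at 0 h. Loci at 100 FPKM or more at 0 h that were 3-fold lower at neither step made up 21.4%. All loci outside the 223 together summed to 579371, 553495 and 531449 FPKM at 0, 24 and 48 h. As arithmetic on the deposited values, the 223 loci were thus the larger part of the falls over the first day and a small part over the second.

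**Figure D1:**
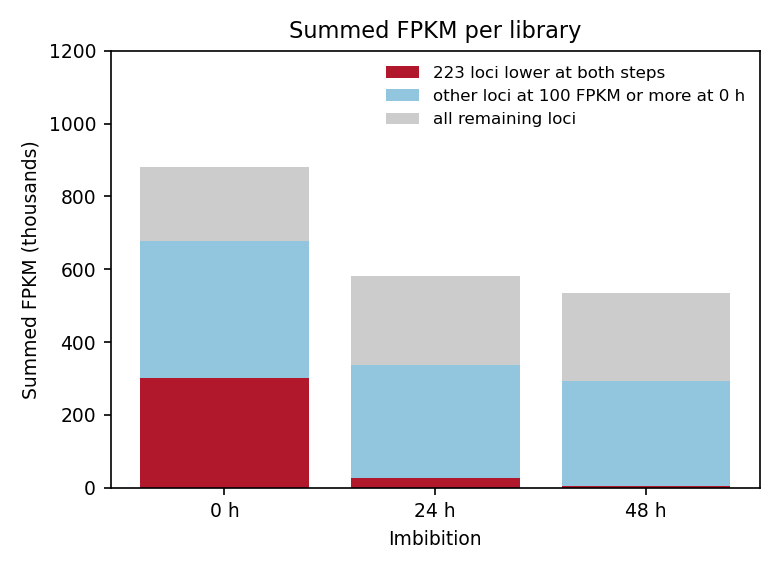
Summed FPKM of each library (vertical axis, in units of 1000 FPKM) at 0, 24 and 48 h of imbibition, 1 library per bar. The 223 loci that were at least 3-fold lower at both steps (red) held 34.3%, 4.66% and 0.725% of the sum, while the other 778 loci at 100 FPKM or more in the dry seed (blue) held 42.5%, 53.5% and 54.1%.

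Falls of this kind were uncommon over all loci. Some 20915 loci reached 1 FPKM in 1 or more of the libraries, and of these 1514 or 7.24% were at least 3-fold lower at 24 h than at 0 h, and 778 or 3.72% were at least 3-fold lower at 48 h than at 24 h. Both falls were met by 288 loci, 1.38% of the 20915. Of these 288, the 223 described here were at 100 FPKM or more in the dry seed. A locus needs at least 8 FPKM at 0 h to meet both falls on this scale, so loci of low level could not enter.

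Among loci abundant in the dry seed the falls were frequent. Of the 1001 loci at 100 FPKM or more at 0 h, 404 or 40.4% were 3-fold lower at the first step, 325 or 32.5% at the second, and 223 or 22.3% at both. A further 181 loci fell 3-fold at the first step alone, 102 at the second alone and 495 at neither. These 4 groups differed in their starting level, with a median at 0 h of 530 FPKM for the loci lower at both steps, 188 FPKM for the first step alone, 203 FPKM for the second alone and 163 FPKM for neither. At 48 h the medians were 5.26, 22.2, 27.0 and 140 FPKM in the same order of groups. The group with the highest median in the dry seed thus had the lowest in the germinated seed, where the rule itself asks for low values. The mirror image of this course was rarer: 29 loci at 100 FPKM or more at 48 h were at least 3-fold higher at both steps, and over all loci 0.488% were.

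The share of loci that fell at both steps was larger in each higher class of dry-seed level. It was 0.411% of 3646 loci at 10 to 30 FPKM and 2.65% of 1888 loci at 30 to 100 FPKM, both classes outside the set. Within it the share was 11.1% of 669 loci at 100 to 300 FPKM and 35.7% of 227 loci at 300 to 1000 FPKM. Above that it was 62.7% of the 67 loci below 3000 FPKM and 68.4% of the 38 loci from 3000 FPKM upwards. The classes rest on the 0 h library, which also enters the first fall, and a value that is high there by error lies lower at 24 h by selection alone. The second fall does not use the 0 h library, but it is itself part of the rule. The added 1 FPKM also limits it in loci that are low at 24 h, and the part of this in the shares was not tested. This second fall was met by 3.68% and 9.22% of loci in the lowest 2 classes, 21.5% and 45.4% in the middle 2, and 73.1% and 76.3% in the highest 2.

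**Figure D2:**
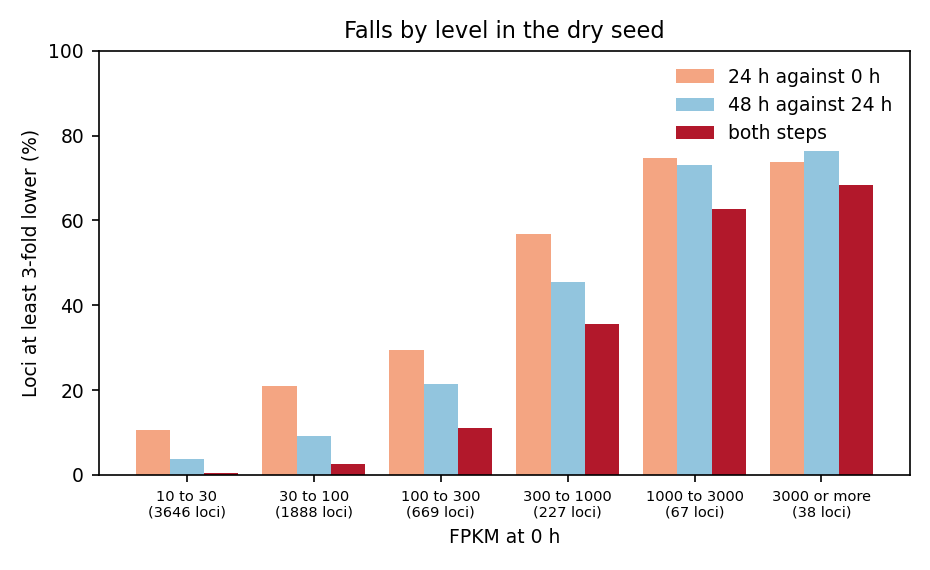
Share of loci (vertical axis, percent) at least 3-fold lower at 24 h than at 0 h, at 48 h than at 24 h, and at both steps, by class of FPKM in the dry seed (horizontal axis, with the number of loci). The share that fell at both steps was 0.411% in the lowest class shown and 68.4% in the highest.

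The set took 63 of the 100 highest places in the dry seed, and 68 of the 105 loci that reached 1000 FPKM there. Members held 9 of the 100 highest places at 24 h and 1 at 48 h. The 10 highest members of each library held 33.1% of the set's summed FPKM at 0 h, 42.7% at 24 h and 54.6% at 48 h. LOC_Os01g05650 alone made up 6.29%, 15.7% and 34.2% of the set's sum at 0, 24 and 48 h. Without it the 10 highest of the rest held 30.6%, 33.9% and 32.9% of the rest.

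The most abundant member, LOC_Os01g05650 on chromosome 1, was at 19003, 4253 and 1328 FPKM at 0, 24 and 48 h. It ranked 4th of all loci in the dry seed, 11th at 24 h and 19th at 48 h, and it was the single member among the 100 highest at 48 h. Its 2 falls, 4.47-fold and 3.20-fold on the FPKM + 1 scale, were among the shallow ones of the set. LOC_Os08g01370 on chromosome 8 was at 16390, 2682 and 225 FPKM, with the steeper fall in the second step, 11.9-fold against 6.11-fold in the first. Together these 2 loci were the members still at 1000 FPKM or more at 24 h.

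Other members of the highest 10 lay between 5995 and 11532 FPKM in the dry seed but differed widely at 48 h. LOC_Os10g39610 on chromosome 10 was at 11532, 554 and 49.9 FPKM at 0, 24 and 48 h. LOC_Os05g28210 on chromosome 5 started close to it and ended lower, at 9781, 749 and 18.1 FPKM. LOC_Os11g37270 on chromosome 11 was at 8984, 282 and 40.3 FPKM. This last locus had the larger part of its fall in the first day, 31.7-fold against 6.85-fold in the second, whereas LOC_Os05g28210 fell 13.0-fold and then 39.3-fold.

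A trio of loci with nearly the same dry-seed level shows how far the courses parted. LOC_Os03g16020 was at 7604, 677 and 59.9 FPKM, LOC_Os01g04370 at 7065, 606 and 70.4 FPKM, and LOC_Os01g06630 at 6988, 536 and 7.40 FPKM at 0, 24 and 48 h. They stood within 1.5 times of each other at 0 h and at 24 h, but at 48 h LOC_Os01g06630 was far below the other two. LOC_Os05g31670 was at 6490, 419 and 16.5 FPKM, and LOC_Os03g15960 at 5995, 421 and 41.1 FPKM. These loci too were close at 24 h and apart at 48 h.

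**Figure D3:**
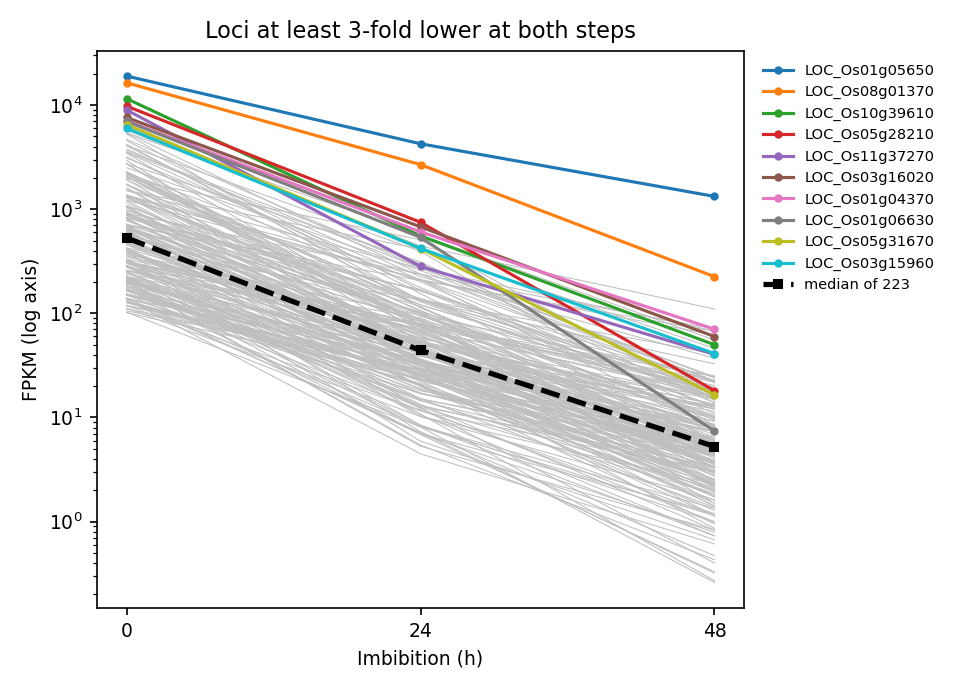
FPKM (vertical axis, logarithmic) of the 223 loci at 0, 24 and 48 h of imbibition, 1 library per time, with the 10 highest at 0 h in colour and the median dashed. The median was 530, 44.1 and 5.26 FPKM, and LOC_Os01g05650, with 1328 FPKM at 48 h, stayed above all other members.

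Over the whole set the dry-seed level ran from 102 to 19003 FPKM, with a median of 530. At 24 h the range was 4.48 to 4253 FPKM with a median of 44.1, and at 48 h it was 0.260 to 1328 FPKM with a median of 5.26. At 24 h 54 of the 223 loci were still at 100 FPKM or more, and at 48 h 3 were. At the lower end 154 were under 10 FPKM and 17 under 1 FPKM at 48 h, and 0 were listed at 0 in any library. The FPKM left at 48 h was 0.104% to 9.72% of that at 0 h, with a median of 0.788%, and 128 loci kept under 1%.

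The first fall was the larger one in most members. The median fall was 11.4-fold at 24 h against 0 h and 7.05-fold at 48 h against 24 h, and the fall over both steps had a median of 93.8-fold and a range of 10.1-fold to 832-fold. The first fall exceeded the second in 161 loci and the second exceeded the first in 62. Counted by size, the first was at least 2-fold larger in 91 loci, the second in 22, and both lay within 2-fold of each other in 110. With every library brought to an equal summed FPKM the count was closer to even, with the first fall larger in 125 loci and the second in 98, and the median excess of the first fall on the log2 scale was 0.18 in place of 0.71.

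The median fall over both steps differed between classes of dry-seed level. It was 38.7-fold for the 74 members at 100 to 300 FPKM in the dry seed, 99.1-fold for the 81 at 300 to 1000 FPKM, 216-fold for the 42 below 3000 FPKM and 213-fold for the 26 above. These classes use values of the rule, and the size of the falls depends on the scale, since 1 FPKM is added to every value. This limits the fall of loci that end near 0. The order of the classes was the same without the added 1 FPKM. The median share of the 0 h FPKM left at 48 h was then 2.06%, 0.847%, 0.396% and 0.447%, from the lowest class to the highest. The share of members with the larger fall in the first step was alike in the 4 classes, between 70.3% and 74.1%.

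The largest falls over the first day led to levels of 10.6 to 52.4 FPKM at 24 h. LOC_Os11g26760 on chromosome 11 was at 2745, 44.1 and 4.54 FPKM at 0, 24 and 48 h, 60.9-fold lower at the first step. LOC_Os11g26570, on the same chromosome, was at 2947, 52.4 and 3.07 FPKM and fell 55.2-fold. Both started among the 50 highest loci of the dry seed, at ranks 41 and 39. LOC_Os01g45659, at 643, 10.6 and 0.730 FPKM, and LOC_Os08g45110, at 720, 12.1 and 1.00 FPKM, fell by 55.5-fold and 55.2-fold from a lower start.

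In other loci the second fall was the larger by far. LOC_Os04g52750 on chromosome 4 had the most delayed course, at 1969, 508 and 14.5 FPKM at 0, 24 and 48 h, with a first fall of 3.87-fold and a second of 32.8-fold. LOC_Os01g06630, at 6988, 536 and 7.40 FPKM, had the largest second fall, 64.0-fold, after a first of 13.0-fold, which is above the median of the set. LOC_Os05g49440 on chromosome 5, at 4104, 394 and 8.36 FPKM, fell 42.3-fold in the second step and 10.4-fold in the first. LOC_Os01g56610, at 110, 27.8 and 0.860 FPKM, had the same order of falls at a much lower level.

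The opposite course, with a first fall far larger than the second, was clearest in LOC_Os01g64670, at 324, 5.92 and 0.670 FPKM at 0, 24 and 48 h. Its falls were 47.0-fold and 4.14-fold. LOC_Os03g53340, at 199, 5.29 and 0.830 FPKM, and LOC_Os02g48140, at 426, 10.2 and 1.61 FPKM, followed it. These loci were between 5.29 and 10.2 FPKM at 24 h, where the added 1 FPKM weighs on the second fall.

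**Figure D4:**
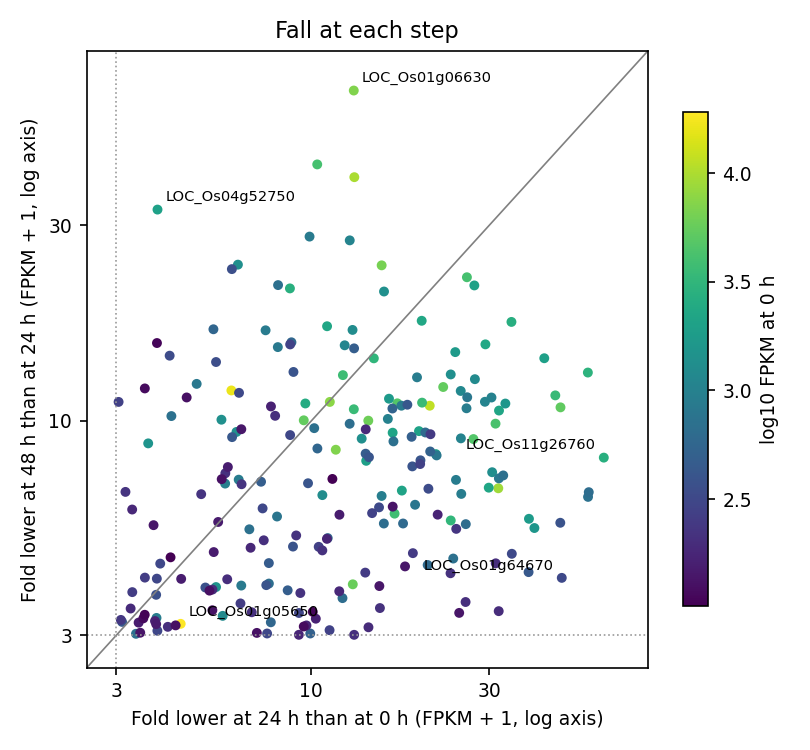
Fold lower at 24 h than at 0 h (horizontal) against fold lower at 48 h than at 24 h (vertical) for the 223 loci, on FPKM + 1 with logarithmic axes, coloured by log10 FPKM at 0 h. Dotted lines mark the 3-fold limits and the grey line equal falls; 161 loci lie to the right of it, and LOC_Os01g06630 is highest with a second fall of 64.0-fold.

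At 48 h the members that remained highest were LOC_Os01g05650 and LOC_Os08g01370, with 1328 and 225 FPKM, followed by LOC_Os02g37480 and LOC_Os04g52180. LOC_Os02g37480 on chromosome 2 was at 5732, 443 and 110 FPKM at 0, 24 and 48 h, and LOC_Os04g52180 at 916, 237 and 71.0 FPKM. LOC_Os02g37480 combined a first fall of 12.9-fold with a second of 3.996-fold, while LOC_Os04g52180 fell by under 4-fold each time. The lowest members at 48 h were LOC_Os09g20440, LOC_Os01g54520, LOC_Os03g58180 and LOC_Os09g26380, between 0.260 and 0.330 FPKM. These 4 loci were between 103 and 245 FPKM in the dry seed and between 6.86 and 10.8 FPKM at 24 h.

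The limits of the set divide loci of nearly equal values. At the limit of level, LOC_Os02g09250 with 102 FPKM and LOC_Os09g20440 with 103 FPKM at 0 h were inside, whereas LOC_Os06g14240 with 99.4 FPKM and LOC_Os01g29104 with 99.2 FPKM were outside. At the limit of the first fall, LOC_Os08g36320 and LOC_Os01g56470 were inside at 3.04-fold and 3.09-fold, against 2.999-fold for LOC_Os05g38660 and 2.98-fold for LOC_Os01g48930 outside. LOC_Os01g32780 and LOC_Os06g05440 were inside by a second fall of 3.01-fold each, against 2.997-fold for LOC_Os01g58620 and 2.97-fold for LOC_Os02g30470 outside. Several very abundant loci were also outside: of the 10 highest loci of the dry seed 4 were members. LOC_Os01g15270 was at 31919, 23480 and 4875 FPKM at 0, 24 and 48 h and LOC_Os07g34589 at 19981, 8121 and 1185 FPKM, and both missed the set by the first fall, 1.36-fold and 2.46-fold.

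The number of isoforms listed for a locus was not used by the rule. A single isoform was listed for 178 of 223 members, or 79.8%, against 468 of the other 778 loci at 100 FPKM or more in the dry seed, or 60.2%. Over all loci at 1 FPKM or more the share was 72.0%. With equal library sums, which changes both groups, the shares were 82.5% of members and 59.2% of the others. How many isoforms a locus is given depends on the annotation, and no test was made over loci.

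Where a member had 2 or more isoforms, 1 of them usually carried it. In these 45 loci the leading isoform held a median of 94.6% of the locus at 0 h, and 30 had 90% or more in 1 isoform. The leading isoform of the dry seed also led at 48 h in 38 loci and did not in 7. Of 88 isoforms at 10 FPKM or more at 0 h, 57 were themselves at least 3-fold lower at both steps. The other 31 came from 23 loci, and no matching count was made for isoforms of other loci. In LOC_Os06g45840, singled out after its values were seen, neither listed isoform met both falls, and the locus passed only as their sum. LOC_Os06g45840.1 was at 125, 16.0 and 8.30 FPKM at 0, 24 and 48 h, and LOC_Os06g45840.2 at 1.26, 12.5 and 0 FPKM.

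In LOC_Os03g46100 on chromosome 3, which has 4 listed isoforms, isoform LOC_Os03g46100.2 was at 3350, 219 and 17.4 FPKM at 0, 24 and 48 h and LOC_Os03g46100.1 at 1090, 23.7 and 4.03 FPKM. In LOC_Os01g08860, isoform LOC_Os01g08860.2 was at 2716, 154 and 21.5 FPKM and LOC_Os01g08860.1 at 1068, 71.0 and 15.5 FPKM. In both loci the 2 highest isoforms of the dry seed were lower at each step and kept their order. Of the others of LOC_Os03g46100, LOC_Os03g46100.4 was at 46.3, 22.1 and 1.12 FPKM and LOC_Os03g46100.5 at 216, 10.3 and 1.44 FPKM, so these exchanged their order at 24 h. LOC_Os03g07180 was at 2289, 77.1 and 4.08 FPKM in 3 isoforms, of which LOC_Os03g07180.3 held 50.7% at 0 h and 99.3% at 48 h.

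LOC_Os03g06360 was at 2045, 73.7 and 2.49 FPKM at 0, 24 and 48 h, and its isoforms differed in the size of each fall. LOC_Os03g06360.1 measured 1727 FPKM in the dry seed and 2.01 FPKM after 24 h, and was listed at 0 at 48 h. LOC_Os03g06360.2 was at 317, 71.7 and 2.49 FPKM. The first isoform fell 574-fold and 3.01-fold and the second 4.38-fold and 20.8-fold. The first held 84.5% of the locus in the dry seed and the second 97.3% at 24 h. Singled out after its values were seen, LOC_Os03g13840 had a similar exchange, with LOC_Os03g13840.1 at 165 FPKM at 0 h, listed at 0 at 24 h and at 0.690 FPKM at 48 h, and LOC_Os03g13840.2 at 112, 25.5 and 3.69 FPKM. A listed 0 can be a failed estimate, and reads shared by isoforms or by similar loci were divided before deposition, so single isoforms are less certain than their locus.

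Some members stood next to each other in the order of locus IDs, which follows the chromosomes. There were 8 runs of neighbouring members, 2 with 3 loci and 6 with 2, which held 18 of the 223 loci or 8.07%. No such count was made for the other abundant loci, so whether this share is high is not known. On chromosome 3, LOC_Os03g16020 at 7604, 677 and 59.9 FPKM was followed by LOC_Os03g16030 at 2057, 94.3 and 10.48 FPKM and LOC_Os03g16040 at 3180, 133 and 22.5 FPKM at 0, 24 and 48 h. The next ID on the one side, LOC_Os03g16010, was at 7.20, 15.5 and 22.0 FPKM, and the next on the other, LOC_Os03g16050, was under 1 FPKM in each library. Neither flanking locus could have met both falls, since each was below 8 FPKM at 0 h.

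On chromosome 1, LOC_Os01g04360 was at 2238, 73.8 and 9.88 FPKM, LOC_Os01g04370 at 7065, 606 and 70.4 FPKM, and LOC_Os01g04380 at 2500, 258 and 22.5 FPKM at 0, 24 and 48 h. Nearby, LOC_Os01g04340 was also a member, at 896, 35.7 and 4.11 FPKM. Between them LOC_Os01g04350 was at 19.0, 1.47 and 0.400 FPKM, a fall with a low start. LOC_Os01g04330 was at 1413, 39.3 and 19.7 FPKM and missed the set by its second fall.

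On chromosome 11, 4 members lay within 5 neighbouring IDs. LOC_Os11g26750 was at 281, 13.4 and 0.830 FPKM, LOC_Os11g26760 at 2745, 44.1 and 4.54 FPKM, LOC_Os11g26780 at 3454, 75.6 and 5.63 FPKM, and LOC_Os11g26790 at 4192, 133 and 12.6 FPKM at 0, 24 and 48 h. The ID in their middle, LOC_Os11g26770, was at 0.0800 FPKM or less. The first fall was 19.6-fold, 60.9-fold, 45.1-fold and 31.2-fold in the order of the 4 loci, and the second lay between 7.85-fold and 11.5-fold. The second falls were thus close in size where the first falls differed. Whether neighbouring loci of these 3 stretches share reads through similar sequence was not tested.

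**Figure D5:**
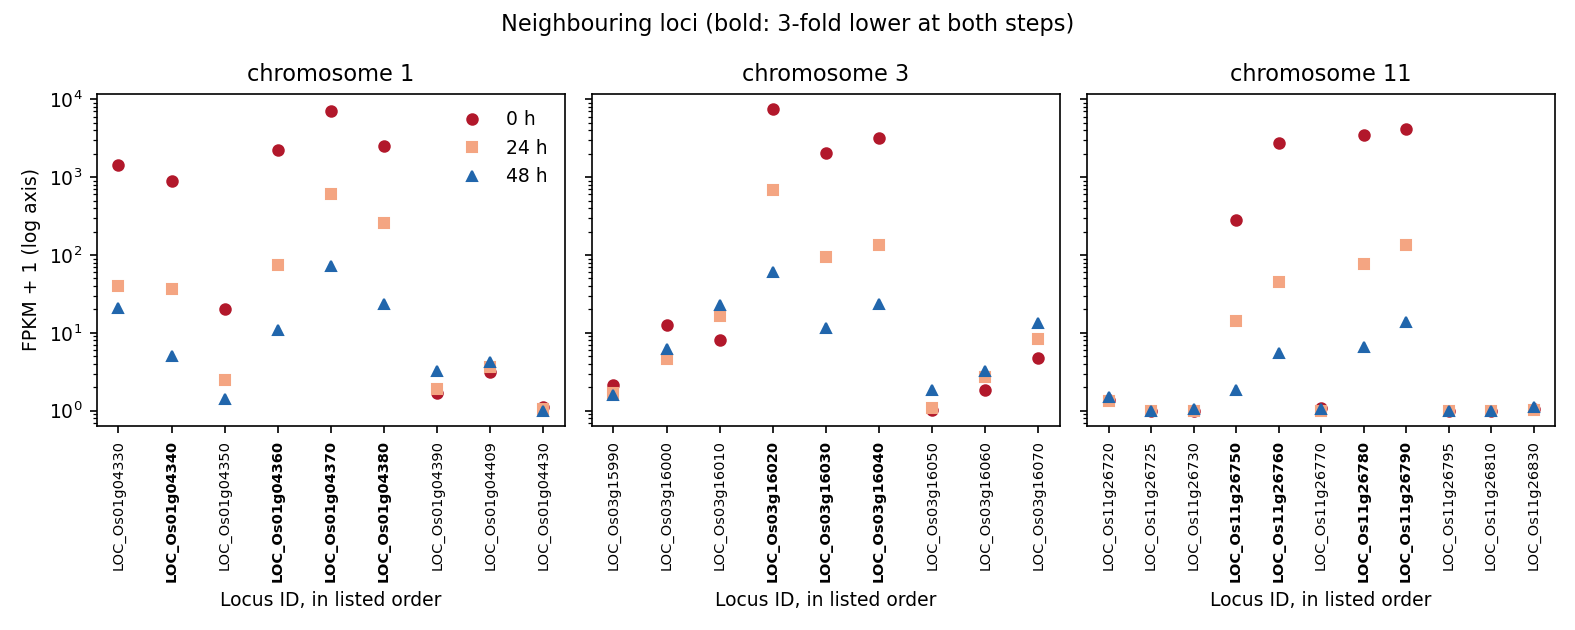
FPKM + 1 (vertical axis, logarithmic) at 0, 24 and 48 h for the stretches of neighbouring locus IDs on chromosomes 1, 3 and 11, with members in bold and the next 3 listed IDs on each side. The members' points run from high at 0 h to low at 48 h, while LOC_Os03g16010 was at 7.20, 15.5 and 22.0 FPKM and LOC_Os11g26770 at 0.0800 FPKM or less.

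Loci of low level next to members were described as a property that the rule did not use. These neighbours were not members and were under 100 FPKM at 0 h. Of 261 such loci that reached 1 FPKM in any library, 46 or 17.6% were at least 3-fold lower at 24 h than at 0 h, against 7.90% of the 873 next to other loci at 100 FPKM or more and 5.58% of all 19889 loci under 100 FPKM at 0 h. The median log2 difference was -0.45 next to members, -0.07 next to the other abundant loci and 0.10 over all. In the second step the shares were 3.45%, 2.06% and 2.27%, with 9 loci behind the first of them. Rescaled to the same sum, the first-step shares were 9.96%, 3.09% and 2.65%, and the median log2 differences were 0.00, 0.35 and 0.48. The neighbours of members also started higher, with a median of 5.98 FPKM at 0 h against 4.67 FPKM next to the other abundant loci and 3.64 FPKM over all, and the part of level in these shares was not tested. No test of the shares was made, since loci are not replicates.

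Members were found on all 12 chromosomes. Chromosome 3 held 46 of the 223, or 20.6%, against 16.3% of the other loci at 100 FPKM or more and 13.3% of loci at 1 FPKM or more. Chromosome 1 followed with 37 members and chromosome 5 with 24, while chromosome 12 held 7. By summed dry-seed FPKM, chromosome 3 held 21.3% of the set, chromosome 1 21.0%, chromosome 5 13.7% and chromosome 11, with 13 members, 9.56%. Of the loci at 100 FPKM or more on each chromosome, the members made up 12.5% on chromosome 7 and 28.3% on chromosome 11, the ends of the range.

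The other 778 loci abundant in the dry seed kept their level far better as a group. Their median was 174, 109 and 78.1 FPKM at 0, 24 and 48 h, and their share of the summed FPKM was 42.5%, 53.5% and 54.1%. Since the members were chosen by their falls, the contrast with the others follows from the choice.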

How the data were processed

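For each library the authors deposited FPKM per transcript isoform, rounded to 2 decimals, taken from isoform-level results per the file headers. The submitters' processing notes name FastQC, RSEM 1.1.11 and edgeR 2.3.52 without their roles. Not given in the sources used here are the aligner, genome build, annotation and any scaling of one library to another. FPKM is relative to a library's total, so a rise of very abundant transcripts lowers the rest.

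From these values, isoforms were summed per locus by ID without its suffix. Differences were taken on log2(FPKM + 1), which understates the change of low loci, and a locus was called lower by a rule of size, 3-fold, with no test. The background counts loci that reached 1 FPKM in any library. Named loci were members highest at 0 h, with the largest falls or the most unequal ones, highest and lowest at 48 h, next to a limit, with several isoforms, or in neighbouring runs. Members and rules were chosen with earlier results of these data known. Scripts were tested on simulated data. Python 3.11.15, numpy 2.4.6, pandas 2.3.3 and matplotlib 3.10.9 were used.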

Additional observations from a re-analysis of the deposited data

How the results depend on the processing

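No paired analysis was possible because there was 1 pooled library at each time; leaving out replicates was likewise not possible. The number of loci in the set was 345 at 2-fold per step and lay between 162 and 262 under the other alternatives, within 1.5 times of 223. Rescaling to the same sum gave 177 loci, all among the 223, and doing so without LOC_Os09g00999, chosen after seeing the data, gave 166. These rescalings lower the 0 h values and raise the later ones, so further loci could hardly enter. With the 223 loci held fixed, each was lower at both steps under every pseudocount and scaling tried. The rule leaves no room for another outcome, since each fall was at least 3-fold and all factors lay between 0.712 and 1.39. Fewer passed 3-fold: 191 and 208 at the first and second step with the same sum, and 221 and 169 with a pseudocount of 5 FPKM. The median log2 difference of all loci at the first step was 0.45 with the same sum and 0.49 without LOC_Os09g00999, against 0.06 as deposited.

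Counts over all loci, given for the first and then the second step, depended more on the setting. They were 2499 and 1422 with a pseudocount of 0.1 FPKM, 826 and 399 with 5 FPKM, 3213 and 2274 at 2-fold, and 947 and 415 at 4-fold. The first-step count was 846 with the same sum and 788 without LOC_Os09g00999, and the second-step count was 1221 with isoforms taken singly. For named members, 463 of 504 alternative values stayed past 3-fold and 41 did not. That 0 changed direction was fixed by the rule. Of 36 alternative shares of the summed FPKM, 30 stayed within 1.5 times. The 24 h share was 7.81% at 2-fold. The 48 h share was 1.51% at 2-fold, 0.289% at 4-fold, 0.449% with median-of-ratios factors, 0.356% with the same sum and 0.338% without LOC_Os09g00999; except at 2-fold, LOC_Os01g05650 is then outside the set. Without read totals, the counting error of low values at 48 h cannot be given.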

Other observations

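The 29 loci with the mirror course, out of 589 at 100 FPKM or more in the germinated seed, were low in the dry seed. Their medians were 1.03, 41.7 and 224 FPKM at 0, 24 and 48 h, and they held 1.70% of the summed FPKM at 48 h, against the 34.3% that the 223 falling loci held at 0 h.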
